A study of Rattus norvegicus with 20 samples.

Results

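The levels of 7 channel genes that set the resting excitability of neurons were followed in dorsal root ganglia (DRG), the clusters of sensory neuron cell bodies beside the spinal cord. They were Hcn2, Hcn3, and Hcn4, which encode pacemaker channels, and Kcnk1, Kcnk2, Kcnk3, and Kcnk18, which encode potassium leak channels. The rows of the count table were chosen by gene symbol, and 7 of the 39747 genes in the table were members. RNA was sequenced from 20 DRG of 14 female Sprague-Dawley rats. The methods of the study give an age of 8 to 10 weeks when the rats were housed, before the diets, and no age at collection. Each rat was fed a soy oil diet (SOD) or a fish oil diet (FOD) from 4 weeks before surgery. Chronic constriction injury (CCI) was made with 4 loose chromic gut ligatures on the left sciatic nerve, which sham surgery (CT) exposed and left untied. The labels name 1 week of recovery before the tissue was taken, and they also name 4 weeks of diet after surgery, so the length of feeding before collection is not settled. The left side was sequenced in 3 FOD-CT and 4 FOD-CCI rats and in 4 SOD-CT and 3 SOD-CCI rats. The right (contralateral) side was sequenced in all 3 of these SOD-CCI animals and in 3 of the 4 with FOD-CCI. Sham rats have no contralateral library here, the fish oil diet of the study kept some soy oil, and the study left out 2 further samples before making libraries.

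Every difference of a member that was called in any fit lay between the sides of the injured rats. Kcnk1 was lower in the left than in the contralateral DRG of 5 of 6 rats, and so was Hcn2, where 16.6% of all genes were lower in at least 5 of 6. Hcn3 was higher in 5 of 6, as were 18.7% of all genes in at least 5. Kcnk2 was lower on the left in 3 of 3 FOD-CCI rats, where 23.5% of all genes moved in 1 direction in all 3. It had the smallest unadjusted p of any member there in edgeR (0.00394, adjusted p = 0.522). In the rat that departed for Kcnk1 and Hcn2, the contralateral library was nearly without nociceptor transcripts, both libraries held spinal cord transcripts, and the left library lacked the nerve injury transcripts of the other CCI rats. With all rats, edgeR called none of the 7 genes in any of the 10 comparisons made, and DESeq2 called Kcnk1 between sides in SOD-CCI rats. Without that rat, edgeR called Kcnk1 and Hcn2 between sides over both diets, in a fit that called 7.64% of all genes. Leaving out the only rat that went the other way for both genes favoured these calls.

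HCN channels open when the membrane becomes more negative and let sodium and potassium ions through, a current that brings the cell back toward firing. Cyclic AMP eases the opening of some of them, such as HCN2 and HCN4. The adenylyl cyclases that produce it are upstream regulators of those channels. Two-pore channels, named for the paired pore domains in each subunit, pass potassium at rest and hold the membrane negative. Several are gated by stimuli that matter to sensory neurons: TREK-1 (Kcnk2) by stretch, heat, and polyunsaturated fatty acids, TASK-1 (Kcnk3) by external acid, and TRESK (Kcnk18) by calcium through calcineurin. TWIK-1 (Kcnk1) carries a weak inward-rectifying leak. HCN2 is known from studies of inflammatory and nerve injury pain, and HCN4 is the main pacemaker channel of the sinoatrial node.

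Total counts ran from 22547190 to 54437581 per library, with a median of 29051399. The 3 FOD libraries that held spinal cord transcripts were FOD-CT replicate 1, FOD-CCI replicate 1, and the contralateral library of FOD-CCI replicate 1. The summed level of 10 spinal cord markers was 2977 to 4198 CPM (counts scaled for library size) in these and at most 92.99 CPM in the others, and all 10 markers were detected in each of these libraries. In the contralateral library of FOD-CCI replicate 1, 8 nociceptor markers summed to 61.6 CPM, with 3 of them at 0, against 765 to 3260 CPM in the other 19 libraries. Its 10 neuron markers summed to 4333 CPM against 12110 to 30270 CPM, so the DRG label of this library was not borne out by its sensory neuron markers. SOD-CT replicate 1 had 12.5% of its counts in 10 skeletal muscle genes and only 15421 genes detected, the fewest of the 20, and FOD-CT replicate 2 had 2.69% in the muscle genes. The library labelled FOD-CCI replicate 1 also went against its label in the nerve injury genes. Atf3, a transcription factor induced in injured sensory neurons, was at 3.25 CPM there, against 205 to 502 CPM in the other FOD-CCI libraries and 13.7 to 42.3 CPM in FOD-CT. Of 9 nerve injury genes, 4 were higher on the left in that rat and 9 in each of the other 5 rats. Where leaving out that rat, the libraries with spinal cord transcripts, or SOD-CT replicate 1 moved a fitted value of a member by over 1.5 times, both values are given. In whole ganglia, fewer cells of a type and less RNA per cell cannot be told apart.

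Compared per length, the 7 genes spanned more than an order of magnitude. On the deposited FPKM scale, which divides by gene length, the median over 20 libraries was 51.3 for Hcn2 and 39.3 for Kcnk1. The other members were at a median of 5.31 for Hcn3, 4.75 for Kcnk2, 3.42 for Kcnk18, 3.14 for Kcnk3, and 1.6 for Hcn4. Of the 10 other two-pore genes listed, Kcnk4 (13.2 FPKM), which encodes the mechanosensitive channel TRAAK, stood between the 2 high members and the rest. Kcnk12 had a median of 5.93 FPKM, and the other medians were below 2 FPKM. Hcn2 and Kcnk1 thus had the highest medians per length of the genes shown, and their ranges over the libraries overlapped.

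**Figure D1:**
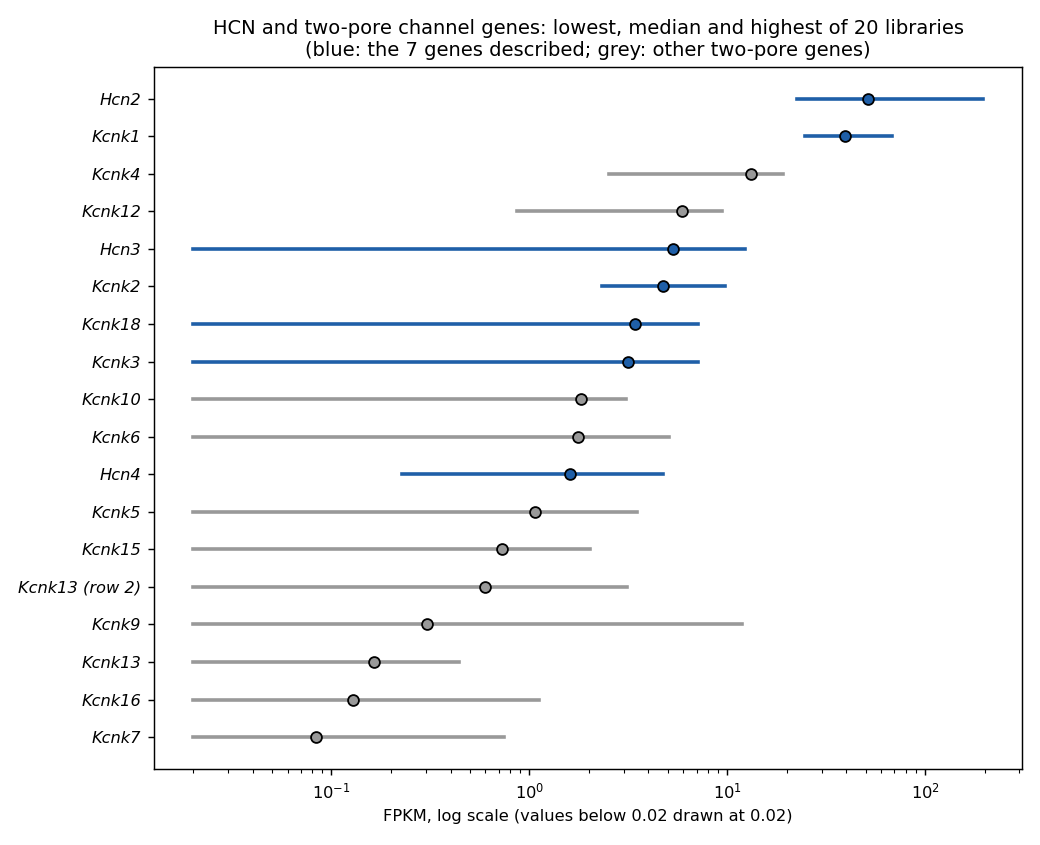
FPKM on a log axis for the 7 genes and 10 other two-pore channel genes, with lines from the lowest to the highest of 20 libraries and points at the median. Blue marks the 7 genes described and grey the others, and Kcnk13 has 2 rows in the table. Hcn2 (51.3) and Kcnk1 (39.3) lie highest, Hcn4 (1.6) is the lowest of the 7, and lines that reach the left edge include libraries listed at 0.

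All 7 genes passed the filter on low counts, which asked for 10 counts in 90% of libraries, in the fit of left DRG (14484 genes tested) and in the fit of both sides with the rat as a block (14549 genes). Hcn3, Kcnk3, and Kcnk18 passed the first with 13 of 14 libraries, and Kcnk18 the second with 11 of 12. Calls required an adjusted p no higher than 0.1 together with a change of 1.2-fold or more. In SOD-CCI against SOD-CT, FOD-CCI against FOD-CT, FOD-CCI against SOD-CCI, and FOD-CT against SOD-CT, 0 of the 7 were called, as were 0% of all genes tested by edgeR, and the same held for the mean effect of CCI and for the interaction of diet with injury. At an unadjusted p under 0.05, 1 of the 7 was counted in SOD-CCI against SOD-CT, against 13.8% of all genes. In the other comparisons of left DRG 0 of the 7 were counted, against 3.39% to 11.5% of all genes. DESeq2 called 594 genes in SOD-CCI against SOD-CT and 21 in FOD-CCI against FOD-CT, none of them a member. In the left fit, the median log2 fold change of the 7 in SOD-CCI against SOD-CT was 0.58, beside −0.01 over all genes, and in FOD-CCI against FOD-CT it was 0.13 beside 0.01. Both medians rested in part on single libraries. Without SOD-CT replicate 1, Hcn2 (−0.22) and Kcnk2 (−0.12) turned negative and Kcnk18 fell to 0.19, while Kcnk3 was at 0.50 and Hcn3 at 0.82. In FOD-CCI against FOD-CT without FOD-CCI replicate 1, Hcn2 (−1.07) and Kcnk3 (−0.43) turned negative, and Kcnk2 rose to 0.35.

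Between sides, edgeR called 0 of the 7 in SOD-CCI rats (0.131% of all genes called), in FOD-CCI rats (0.0137%), over both diets (0.962%), and in the difference of the side effect between diets (0%). DESeq2 called Kcnk1 in SOD-CCI rats, among 3.24% of all genes. At an unadjusted p under 0.05 the count was 2 of 7 in SOD-CCI rats (Hcn3 and Kcnk1) against 8.48% of all genes, 1 of 7 in FOD-CCI rats (Kcnk2) against 6.96%, and 3 of 7 over both diets (Hcn3, Kcnk1, and Kcnk2) against 11.6%. For the difference between diets it was 1 of 7 (Kcnk2) against 2.91%. Left CCI libraries enter both the comparison with sham and the comparison with the contralateral side, so the results of these comparisons are not independent.

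**Figure D2:**
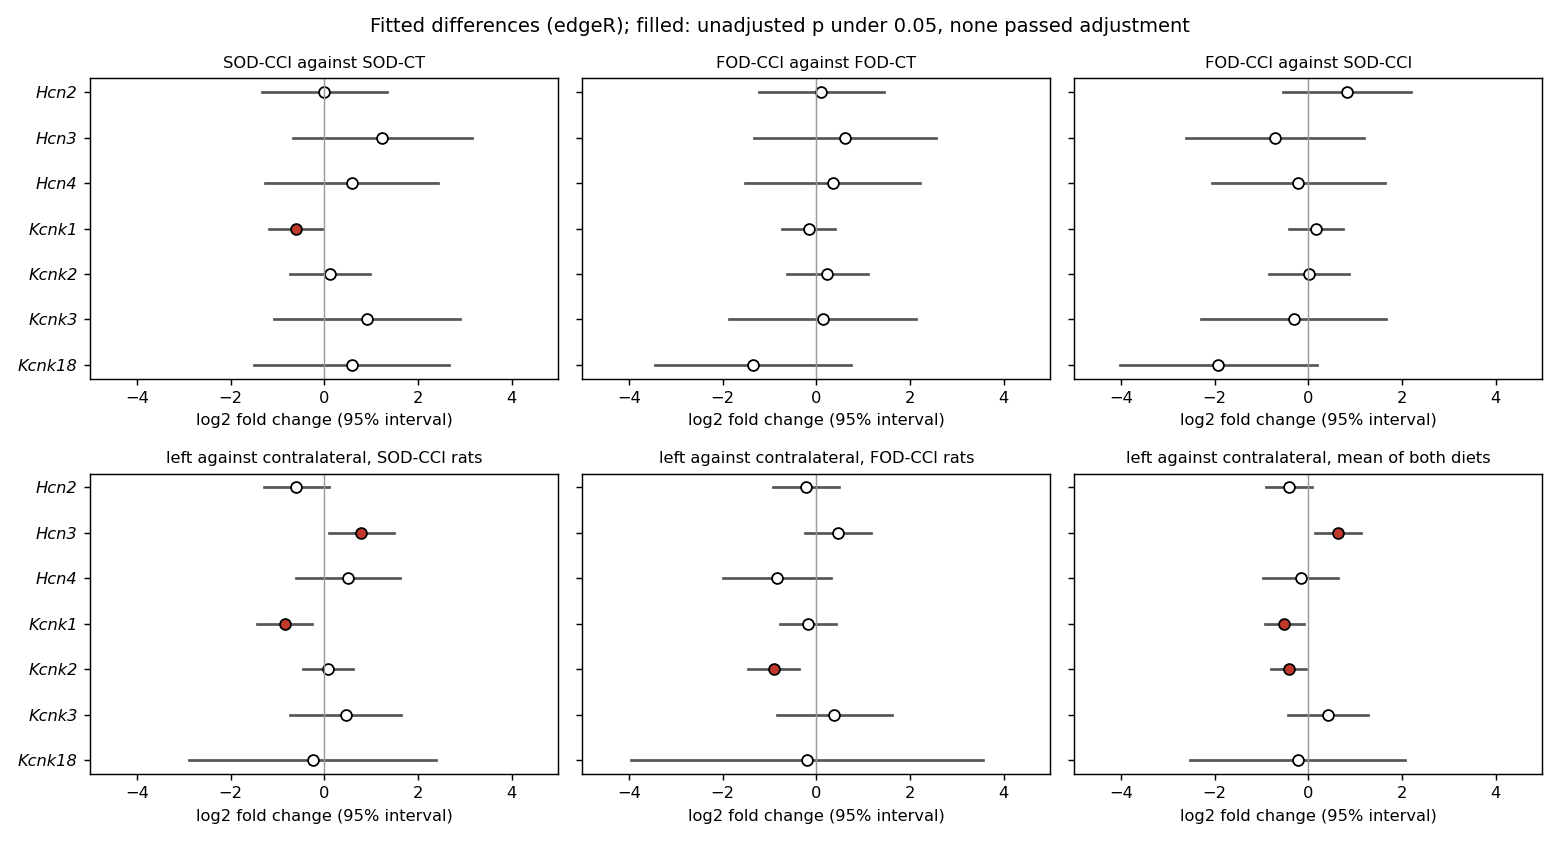
Log2 fold change of each gene with its 95% interval from edgeR in 6 comparisons. Filled points had an unadjusted p under 0.05, which are Kcnk1 in SOD-CCI against SOD-CT, Hcn3 and Kcnk1 between sides in SOD-CCI rats, Kcnk2 between sides in FOD-CCI rats, and all of Hcn3, Kcnk1, and Kcnk2 over both diets, and none passed the adjusted threshold. The intervals of Kcnk18 are the widest.

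Of the pacemaker channel genes, Hcn2 had its highest values in the libraries with spinal cord transcripts. Its level was 444 CPM in FOD-CCI replicate 1, 263 CPM in the contralateral library of that rat, and 229 CPM in FOD-CT replicate 1. All 17 other libraries were lower, from 44.3 to 180 CPM with a median of 110 CPM. The spinal cord markers of the highest libraries summed to 2977, 4198, and 3247 CPM in the order given, so Hcn2 did not rank with these sums. Whether those transcripts account for the level was not tested.

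**Figure D3:**
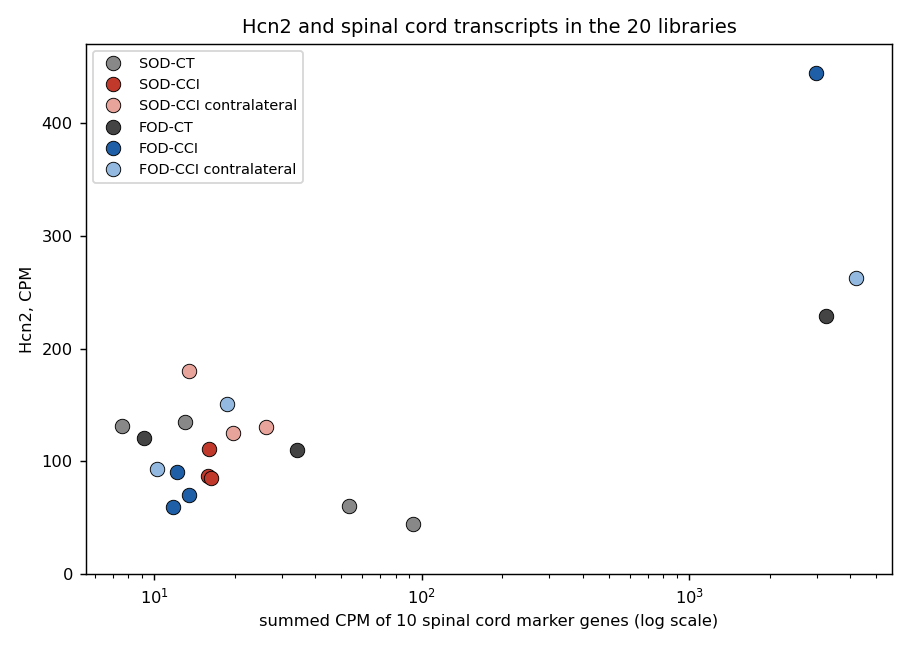
Hcn2 level in CPM against the summed CPM of 10 spinal cord markers on a log axis, 1 point per library, coloured by group. The 3 libraries at 2977 to 4198 CPM of spinal cord markers have 229 to 444 CPM of Hcn2, and the other 17 lie at or below 180 CPM.

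By group, Hcn2 was at 44.3, 132, 135, and 60.6 CPM in SOD-CT, and at 111, 86.9, and 85.1 CPM in SOD-CCI. The SOD-CCI values lay within the range of SOD-CT (log2 fold change 0.00, SE 0.62, 95% interval −1.33 to 1.34, and −0.22 without SOD-CT replicate 1). In FOD-CT the values were 229, 110, and 121 CPM, and in FOD-CCI they were 444, 59.7, 90.3, and 70.6 CPM. The groups overlapped through replicate 1. In a split made after that value was seen, the other 3 FOD-CCI values were below every FOD-CT value, as in 7.88% of all genes. The fitted log2 fold change was 0.11 (SE 0.62) with all libraries and −0.66 (SE 0.40, adjusted p = 0.786) without those holding spinal cord transcripts, so its direction rested on them. The same held for FOD-CCI against SOD-CCI, at 0.83 (SE 0.63, adjusted p = 0.862) with them and −0.36 (SE 0.36, adjusted p = 0.933) without. FOD-CT against SOD-CT differed by 0.72 (SE 0.62), and by 0.31 without FOD-CT replicate 1.

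Within SOD-CCI rats, the contralateral DRG had 130, 180, and 125 CPM of Hcn2, all above the 111, 86.9, and 85.1 CPM on the left. Left minus contralateral, in log2 CPM, was −0.24, −1.05, and −0.56 in these rats. In FOD-CCI rats it was −0.64 and −0.74 in replicates 2 and 3 and 0.76 in replicate 1. Over both diets the log2 fold change was −0.41 (SE 0.22, adjusted p = 0.515). An exact two-sided test over sign changes of the 6 differences gave p = 0.1875, where the smallest possible p is 0.03125. Without FOD-CCI replicate 1, all 5 rats were lower on the left, the log2 fold change was −0.65 (SE 0.15), and Hcn2 was called at adjusted p = 0.0441 in a fit that called 7.64% of genes. The exact test with 5 rats gave p = 0.0625, the smallest that 5 rats allow. That outcome was fixed by leaving out the only rat that went the other way, so it adds no support. The same choice favoured the edgeR call. The 10 neuron markers summed to 22430 to 27200 CPM in left SOD-CCI DRG and to 27620 to 29970 CPM contralaterally, without overlap. In replicates 1, 2, and 3 they were 27200, 22570, and 22430 CPM on the left and 27620, 27800, and 29970 CPM contralaterally. Nefl and Nefm had the highest mean levels of the 10 (6111 and 5164 CPM). In another comparison, the mean of CCI against sham in left DRG of both diets, the markers did not all move together. There 3 of the 10 were higher and 1 lower at an unadjusted p under 0.05 in edgeR, against 11.5% of all genes. Macrophage markers (8 genes) summed to 381 to 549 CPM on the left and 52.2 to 156 CPM contralaterally in these rats, and nociceptor markers to 2871 to 3260 CPM and 1730 to 2712 CPM, with no marker at 0 except 1 macrophage marker in 1 contralateral library. The part of these cell types in the difference was not tested.

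Hcn3 had its highest group level in left SOD-CCI DRG. It was at 26.7, 29.4, and 21.2 CPM there, against 0, 16.6, 17.99, and 8.91 CPM in SOD-CT. The groups did not overlap, which was true of 18% of all genes in this comparison, and the fitted log2 fold change of 1.23 (SE 0.89, 95% interval −0.68 to 3.15, adjusted p = 0.538) did not pass. The SOD-CT library at 0, where 3 counts would correspond to 0.185 CPM, was replicate 1, the library with muscle transcripts. Without it the log2 fold change was 0.82 (SE 0.44, adjusted p = 0.675). In FOD-CT the values were 10.9, 9.02, and 10.6 CPM, and FOD-CCI split into 7.71 and 7.79 CPM in replicates 1 and 2 and 25.6 and 21.5 CPM in replicates 3 and 4. FOD-CCI thus reached both below FOD-CT and up to the level of SOD-CCI.

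Between sides, Hcn3 was at 12.2, 13.9, and 19.5 CPM in the contralateral DRG of SOD-CCI rats, each below the left value of the same rat. The contralateral FOD-CCI values were 5.40, 7.96, and 13.3 CPM. Left minus contralateral was 1.13, 1.08, and 0.12 in SOD-CCI rats and 0.51, −0.03, and 0.94 in FOD-CCI rats. The mean over both diets was 0.63 (SE 0.22, 95% interval 0.13 to 1.13, unadjusted p = 0.0187, adjusted p = 0.311). Left was higher in 5 of 6 rats, with an exact sign-change p of 0.0625. The macrophage and nociceptor sums given for Hcn2 were also higher on the left in SOD-CCI rats, and their part was not tested. Leaving out FOD-CCI replicate 1 left the estimate at 0.62 (adjusted p = 0.185). Over all genes tested, 5.12% were higher on the left in all 6 rats, which Hcn3 was not.

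Hcn4, the least abundant member per length, varied widely within 2 groups. It was at 1.602, 11.6, 9.58, and 0.891 CPM in SOD-CT and at 1.22, 4.03, 6.17, and 19.5 CPM in FOD-CCI, whereas the 3 SOD-CCI values were 8.68, 9.21, and 9.01 CPM. SOD-CT and FOD-CCI were spread over more than 10-fold, and the SOD-CCI libraries lay inside the range of both. The log2 fold change was 0.58 (SE 0.86) in SOD-CCI against SOD-CT, or 0.28 without SOD-CT replicate 1. It was 0.35 (SE 0.87) in FOD-CCI against FOD-CT, or 0.70 without the libraries with spinal cord transcripts. Left minus contralateral was 0.96, 0.46, and 0.07 in SOD-CCI rats and −2.11, −0.06, and −0.41 in FOD-CCI rats. All SOD-CCI rats were thus higher on the left and all FOD-CCI rats lower, but the difference between diets, −1.35 (SE 0.71, unadjusted p = 0.0894, adjusted p = 0.997), did not pass, and it was −0.75 without FOD-CCI replicate 1. All 3 rats of a diet moved in 1 direction for 40.9% of all genes in SOD-CCI rats and for 23.5% in FOD-CCI rats. Of the 7 members, 5 did so in SOD-CCI rats (Hcn3, Hcn4, and Kcnk2 higher, Hcn2 and Kcnk1 lower) and 2 in FOD-CCI rats (Hcn4 and Kcnk2, both lower).

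**Figure D4:**
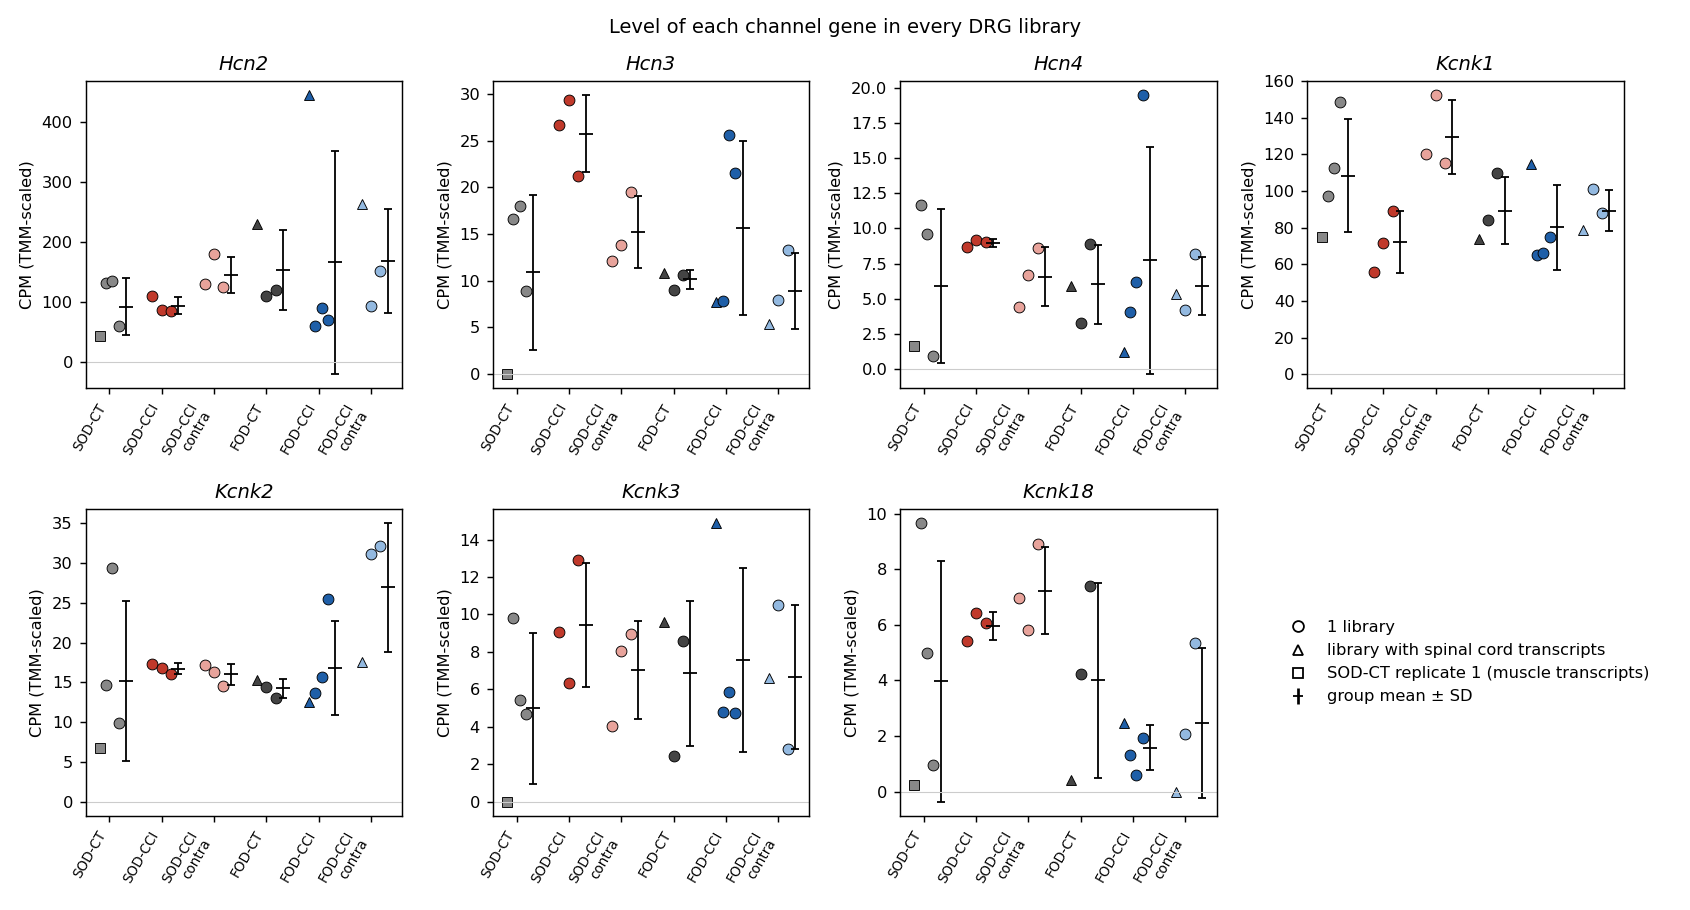
CPM of each gene in every library by group, with the group mean ± SD beside the points. Triangles are the 3 libraries with spinal cord transcripts and squares are SOD-CT replicate 1. Hcn2 is highest in the triangles (229 to 444 CPM), Hcn3 and Kcnk3 are at 0 in the square, Kcnk1 in SOD-CCI (55.6 to 89.3 CPM) lies below its contralateral DRG (116 to 153 CPM), and Kcnk18 in FOD-CCI (0.589 to 2.47 CPM) lies below SOD-CCI (5.43 to 6.41 CPM).

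Among the leak channels, Kcnk1 was the most abundant and the least variable. Its highest library, 153 CPM, was 2.74 times its lowest, and no library was below 55.6 CPM. In SOD-CT it was at 74.9, 97.3, 113, and 149 CPM, and in SOD-CCI at 55.6, 71.8, and 89.3 CPM. The groups overlapped, and the log2 fold change was −0.61 (SE 0.27, 95% interval −1.19 to −0.03, unadjusted p = 0.0402, adjusted p = 0.345). In FOD-CT it was at 74.1, 84.2, and 110 CPM and in FOD-CCI at 115, 65.2, 66.5, and 74.8 CPM, a log2 fold change of −0.16 (SE 0.27). The FOD-CCI library with spinal cord transcripts was the one at 115 CPM, and without such libraries the estimate was −0.51 (adjusted p = 0.714). The interaction of diet with injury was 0.45 (SE 0.38, adjusted p = 0.894) and 0.10 without those libraries. Averaged over diets, CCI against sham gave −0.39 (SE 0.19, unadjusted p = 0.0596, adjusted p = 0.455), and −0.56 (adjusted p = 0.169) without them.

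The contralateral DRG of SOD-CCI rats had 120, 153, and 116 CPM of Kcnk1, above every left value of these rats. Left minus contralateral was −1.11, −1.09, and −0.37, and the fitted fold was 0.556 (log2 −0.85, SE 0.26, 95% interval −1.44 to −0.26, unadjusted p = 0.0101, adjusted p = 0.371). DESeq2 on the same libraries gave −0.87 and called the gene at adjusted p = 0.0663, among 3.24% of all genes. In FOD-CCI rats the contralateral values were 78.6, 101, and 88.0 CPM, and the differences were 0.54 in replicate 1 and −0.63 and −0.40 in replicates 2 and 3. Over both diets the log2 fold change was −0.51 (SE 0.18, adjusted p = 0.324), with an exact sign-change p of 0.125. Without FOD-CCI replicate 1, the only rat that went the other way, Kcnk1 was lower on the left in 5 of 5 rats. The exact sign-change p of 0.0625 was thus fixed by that choice and adds no support. The log2 fold change without that rat was −0.69 (SE 0.15), called by edgeR at adjusted p = 0.0349 among 7.64% of all genes, and the same choice favoured this call. In the same fit the SOD-CCI difference was called at adjusted p = 0.0613, among 3.14% of all genes. Over the fits made for SOD-CCI rats the adjusted p of Kcnk1 ranged from 0.0613 to 1. The side difference did not differ detectably between diets (0.67, SE 0.37, adjusted p = 0.997), with an interval of −0.16 to 1.504, and was 0.32 without FOD-CCI replicate 1. As for Hcn2, neuron marker sums were lower and macrophage sums higher on the left in SOD-CCI rats, and their part was not tested. The neuron sums of replicates 1, 2, and 3 were 27200, 22570, and 22430 CPM on the left and 27620, 27800, and 29970 CPM contralaterally.

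**Figure D5:**
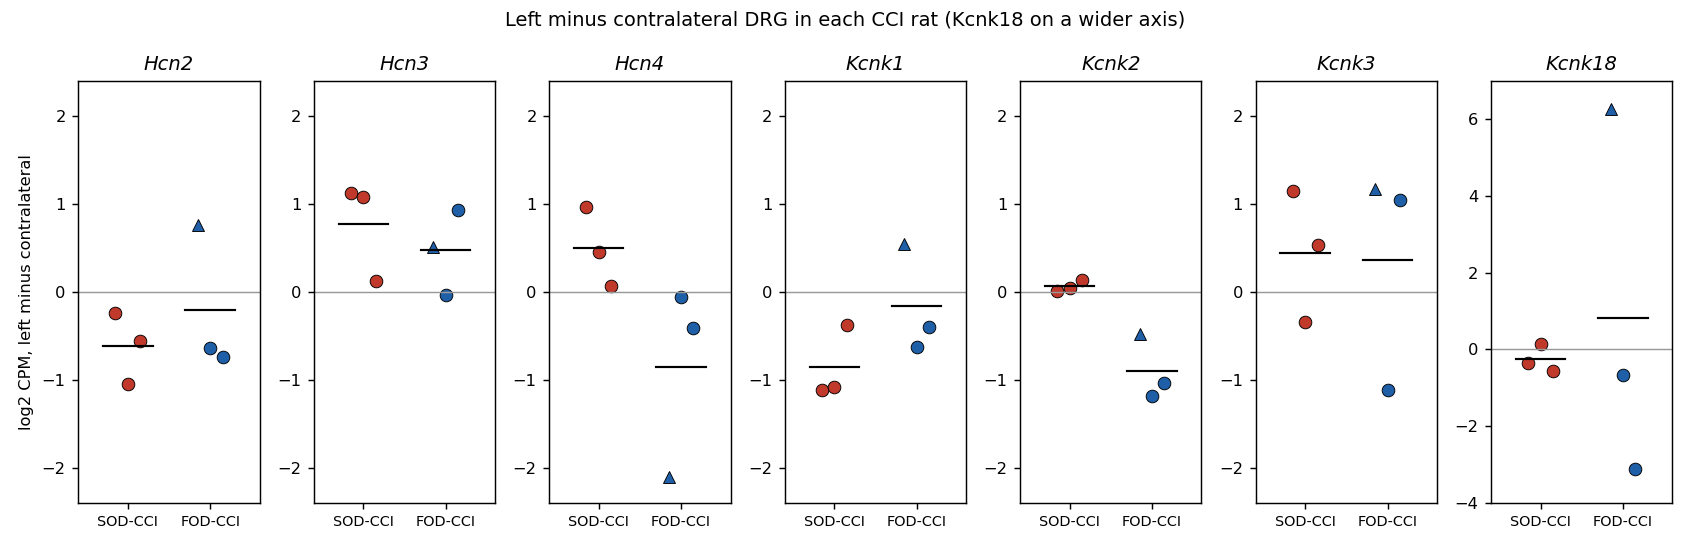
Left minus contralateral level in log2 CPM for each of the 6 CCI rats with both sides sequenced, by diet, with the mean as a line. Triangles mark FOD-CCI replicate 1, whose libraries held spinal cord transcripts. Kcnk1 and Hcn2 are below 0 in every rat other than that one, Hcn4 and Kcnk2 are above 0 in SOD-CCI and below 0 in FOD-CCI rats, and the 6.26 of Kcnk18 comes from a contralateral library with 0 counts.

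Kcnk2, the lipid- and stretch-gated channel, was at nearly the same level in all SOD-CCI libraries. The left values were 17.3, 16.9, and 16.0 CPM and the contralateral values 17.2, 16.3, and 14.6 CPM, so the differences between sides were 0.01, 0.05, and 0.13. In FOD-CCI rats the left values were 12.6, 13.7, and 15.7 CPM, with 25.5 CPM in the rat that has no contralateral library, and the contralateral values were 17.6, 31.1, and 32.1 CPM. Left minus contralateral was −0.48, −1.19, and −1.03 in the FOD-CCI rats. On the left, the SOD-CCI values thus lay within the range of FOD-CCI, through the rat at 25.5 CPM.

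The fitted side difference of Kcnk2 in FOD-CCI rats was −0.91 (SE 0.24, 95% interval −1.45 to −0.38, unadjusted p = 0.00394, adjusted p = 0.522), and −1.12 without replicate 1 (adjusted p = 0.128). DESeq2 gave −0.91 at adjusted p = 0.109, which missed the threshold. As fitted, fibroblast markers were also lower on the left in FOD-CCI rats, 4 of 5 at an unadjusted p under 0.05 with a median log2 of −1.01. In the difference between diets 4 of 5 were lower with a median of −1.78. Their sums in replicates 1, 2, and 3 were 495, 1957, and 1252 CPM on the left and 1156, 1932, and 2707 CPM contralaterally. The sum was thus lower on the left in replicates 1 and 3 and not in replicate 2. The summed level of 8 Schwann cell markers was 29060, 27020, and 17460 CPM on the left and 51180, 32220, and 21630 CPM contralaterally in these rats. The part of these cell types in Kcnk2 was not tested. The difference between diets was −0.99 (SE 0.33, 95% interval −1.74 to −0.23, unadjusted p = 0.0158, adjusted p = 0.997). Against sham, no difference of Kcnk2 was detected. The log2 fold change was 0.12 (SE 0.40) in SOD-CCI, or −0.12 without SOD-CT replicate 1, and 0.23 (SE 0.40) in FOD-CCI, or 0.40 without the libraries with spinal cord transcripts, where sham values ran from 6.72 to 29.4 CPM in SOD-CT and from 13.01 to 15.3 CPM in FOD-CT.

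Kcnk3, the acid-sensitive channel, was low in all groups, with group means of 4.98 ± 4.01 CPM (SD, n = 4) in SOD-CT and 9.45 ± 3.30 CPM (SD, n = 3) in SOD-CCI. FOD-CT was at 6.87 ± 3.87 CPM (SD, n = 3) and FOD-CCI at 7.58 ± 4.90 CPM (SD, n = 4), and all 5 neighbouring groups in the order of means lay within the larger SD of each other. It was at 0 in SOD-CT replicate 1, where Hcn3 was also at 0, and highest in FOD-CCI replicate 1 at 14.9 CPM. The log2 fold change in SOD-CCI against SOD-CT was 0.91 (SE 0.92), and 0.50 without SOD-CT replicate 1. Between sides it was 1.15, −0.34, and 0.53 in SOD-CCI rats and 1.17, −1.12, and 1.05 in FOD-CCI rats, a mixture of directions in both diets.

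Kcnk18, the calcineurin-regulated channel of sensory neurons, was lower in FOD-CCI than in SOD-CCI left DRG without overlap. SOD-CCI was at 5.43, 6.41, and 6.06 CPM, from 152 to 204 counts, and FOD-CCI at 2.47, 1.30, 0.589, and 1.94 CPM, from 32 to 67 counts. The log2 fold change was −1.92 (SE 0.98, 95% interval −4.03 to 0.19, unadjusted p = 0.0713, adjusted p = 0.859), and groups that did not overlap were found for 14.7% of all genes. Of the 7 members it was the only one without overlap in this comparison, and none was without overlap in FOD-CCI against FOD-CT (4.74% of all genes) or in FOD-CT against SOD-CT (3.17%). Over the fits of this comparison the adjusted p ranged from 0.339 to 0.999.

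Sham levels of Kcnk18 were too spread to place these values. SOD-CT was at 0.247, 9.67, 4.98, and 0.965 CPM and FOD-CT at 0.401, 4.22, and 7.39 CPM, so each sham group reached from below FOD-CCI to above SOD-CCI. FOD-CCI against FOD-CT was −1.36 (SE 0.98, adjusted p = 1) and SOD-CCI against SOD-CT was 0.58 (SE 0.97), with an interaction of −1.94 (SE 1.37, adjusted p = 0.894). FOD-CCI against FOD-CT was −2.20 without the libraries with spinal cord transcripts, −0.58 without FOD-CT replicate 3, and −0.47 with the replicate number as a block. SOD-CCI against SOD-CT ranged from 0.19 without SOD-CT replicate 1 to 1.505 without SOD-CT replicate 2, and the interaction from −2.86 without SOD-CT replicate 2 to −1.16 without FOD-CT replicate 3. The lowest sham libraries were those with muscle (SOD-CT replicate 1) and spinal cord (FOD-CT replicate 1) transcripts, whose 8 nociceptor markers summed to 1349 and 765 CPM, and whether this bears on their Kcnk18 was not tested. Nociceptor markers summed to 2871 to 3260 CPM in SOD-CCI and to 1150 to 3130 CPM in FOD-CCI, where 3 of 4 sums (1150, 1846, and 1969 CPM) were below every SOD-CCI sum. Fitted between these groups, none of the 8 nociceptor markers was higher with FOD, with a median log2 of −0.68 beside 0.04 over all genes, and 1 of the 8 (Scn10a, lower) had an unadjusted p under 0.05. The part of nociceptors in the Kcnk18 difference was not tested.

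In the contralateral DRG, Kcnk18 was at 6.96, 5.83, and 8.90 CPM in SOD-CCI and at 0, 2.09, and 5.34 CPM in FOD-CCI rats. The 0 was in the library nearly without nociceptor transcripts, where 3 counts would correspond to 0.126 CPM. Taken as a floor, that value puts the left DRG of that rat 19.7-fold higher. The floor allows for sampling of reads only, in a library with 17176 genes detected, so the fold is not a lower limit. In the other FOD-CCI rats left minus contralateral was −0.67 and −3.11, and in SOD-CCI rats it was −0.36, 0.14, and −0.55. Without FOD-CCI replicate 1 the side difference in FOD-CCI rats was −1.94 (adjusted p = 0.331), against −0.21 with it (adjusted p = 0.984).

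The order of the 6 groups was rarely firm for any member. For Hcn4, Kcnk1, Kcnk3, and Kcnk18, all 5 neighbouring pairs in the order of group means differed by less than the larger SD. For Hcn2, Hcn3, and Kcnk2 this held for 4 of 5. The exceptions were contralateral SOD-CCI above SOD-CCI for Hcn2 (145 ± 30.3 against 94.2 ± 14.3 CPM, SD, n = 3 each), SOD-CCI above FOD-CCI for Hcn3 (25.7 ± 4.15, n = 3, against 15.6 ± 9.26 CPM, n = 4), and contralateral FOD-CCI above FOD-CCI for Kcnk2 (27.0 ± 8.12, n = 3, against 16.9 ± 5.91 CPM, n = 4).

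Related genes gave few differences, and their counts are read beside the nerve injury genes, which check the labels of side and which FOD-CCI replicate 1 did not meet. Of the 9 nerve injury genes tested between sides, 7 were called higher on the left over both diets, among them Jun (log2 1.61, adjusted p = 0.0127) and Gal (log2 3.66, adjusted p = 0.0159), a transcription factor and a neuropeptide of injured sensory neurons. Gap43, Atf3, Adcyap1, Gadd45a, and Ecel1 were also called, and Npy (log2 6.34, adjusted p = 0.122), the most abundant gene of the list that was not called, missed the threshold. The list had a median log2 fold change of 2.10 beside 0.03 over all genes, and in SOD-CCI rats 4 of the 9 were called (Jun, Adcyap1, Gal, and Ecel1). Against sham 0 of 11 were called in either diet by edgeR, with 9 in SOD-CCI and 7 in FOD-CCI at an unadjusted p under 0.05, all higher.

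Of the other two-pore genes, 6 were tested and 0 were called in any of the 10 comparisons. Over both diets the most abundant of them differed between sides by a log2 of 0.21 for Kcnk4 (adjusted p = 0.718), 0.71 for Kcnk12 (adjusted p = 0.41), and 0.79 for Kcnk10 (adjusted p = 0.449). Kcnk9, which encodes the acid-sensitive TASK-3, did not pass the filter and had 0 counts in 4 libraries. The HCN partners and regulators, 7 tested against sham and 6 between sides, had 0 calls. They include Pex5l, the TRIP8b subunit that directs HCN channels to the membrane, at a side difference of −0.08 (adjusted p = 0.861), and Flna (0.06, adjusted p = 0.953), Vapb (−0.01, adjusted p = 0.98), and Nedd4l (0.47, adjusted p = 0.511). Of 8 adenylyl cyclases tested, 0 were called, and Adcy3, Adcy2, Adcy5, and Adcy6 lay between −0.02 and 0.30 over both diets.

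Of the partners of the two-pore channels, 8 were tested and 0 were called, and the most abundant, Ywhaz, S100a10, Ywhab, and Ppp3r1, differed between sides by 0.11, 0.30, 0.10, and −0.14. S100a10 encodes p11, which binds TASK-1, the Ywha genes encode 14-3-3 proteins, and Ppp3r1 encodes the regulatory subunit of calcineurin, which acts on TRESK. Of the inward rectifier potassium channels, 8 were tested between sides with 0 called and a median of −0.47 beside 0.03 over all genes. Their most abundant members were Kcnj10, the potassium channel of satellite glia, at −0.39 (adjusted p = 0.399), Kcnj11 at −0.63 (adjusted p = 0.435), Kcnj12 at −0.18 (adjusted p = 0.87), and Kcnj3 at −0.56 (adjusted p = 0.485). The sodium leak channel Nalcn was at 0.04 (adjusted p = 0.934) and its partners Unc80, Fam155b, and Fam155a at −0.06, 0.25, and −0.18, and 0 of the 5 genes of that complex were called in any comparison.

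Across the 20 libraries, the genes most like each member were found by Pearson's r of log2 CPM, given as a description, since libraries share depth, tissue makeup, and in part the rat. Hcn2 was most like Sh3gl2 (r = 0.95) and Ldhb (0.945), and over the 17 libraries without spinal cord transcripts the values were 0.934 and 0.866. Hcn4 was most like Spata13 (0.893) and Mroh1 (0.878), Kcnk1 like Chst2 (0.857) and Extl2 (0.797), Kcnk2 like Nbl1 (0.818) among others, and Kcnk18 like RGD1307443 (0.932) and Rbms3 (0.925). Hcn3 was most like Arrb1 (0.981) and LOC679129 (0.977), and Kcnk3 like Borcs5 (0.965) and Lrfn1 (0.957), but these rested in part on SOD-CT replicate 1, where both members were at 0. Over the other 19 libraries r was 0.828 and 0.836 for Hcn3 and 0.698 and 0.618 for Kcnk3. Between members, the highest r was that of Hcn3 with Kcnk3, 0.886 over 20 libraries and 0.0772 over 19.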

How the data were processed

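Poly-A RNA of whole DRG was sequenced by the authors, whose pipeline used fastp for trimming, HISAT2 for alignment, and featureCounts 1.5.0-p3 for counting. The deposited counts are whole numbers without scaling, and the deposited FPKM values divide these counts by gene length and by a DESeq2 size factor. Genome build, strand setting, and treatment of multiply aligned reads are not given in the sources used here. Groups came from the labels, which give each left library a rat of its own, and no 2 libraries of a group repeated each other. CPM used TMM library sizes, and log2 values a prior count of 1. Tests were the quasi-likelihood test of edgeR 4.0.16 (R 4.3.3) over all genes with Benjamini–Hochberg adjustment, tested on simulated data, with DESeq2 1.42.0 as an alternative. Left groups were fitted together, and both sides of 6 rats with the rat as a block. Sides of a rat deviated together from their group means (r from 0.113 to 0.43), as did FOD-CT and FOD-CCI libraries of equal number (0.429, 0.237, and 0.191), which the labels assign to different rats. The members and lists were chosen with earlier results of these data known. Named were the 7 members, the listed genes that were called, up to 4 more per list by mean CPM, and the 2 genes most like each member, of which some are not reported here. The exact tests with 5 rats the correlations without single libraries, and the split of FOD-CCI without replicate 1 were added after seeing the data.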

Additional observations from a re-analysis of the deposited data

Results flagged for a closer look

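In the groups of 4 libraries and in the 6 differences between sides, 3 of 21 sets of values had 1 value far from the rest. The rule used has a nominal rate of about 1 in 20 for independent sets. These sets share libraries and rats, so that rate does not hold and no excess over chance can be read from the count. Hcn2 in FOD-CCI had replicate 1 at 444.1 CPM against 59.7 to 90.3 CPM in the other libraries. Kcnk3 in FOD-CCI had replicate 1 at 14.9 CPM, against 4.77 to 5.84 CPM in the others. The side difference of Kcnk18 was 6.26 in FOD-CCI replicate 1, where the contralateral library had 0 counts, against −3.11 to 0.14 in the other rats. All of these values come from the same rat, whose libraries held spinal cord transcripts (2977 CPM on the left and 4198 CPM contralaterally), and whose left library had 3.25 CPM of Atf3 against 205 to 502 CPM in the other FOD-CCI libraries. The part of these features in the values was not tested.

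By sign alone, the side difference was positive in every SOD-CCI rat and negative in every FOD-CCI rat for Hcn4 and Kcnk2. The SOD-CCI values of Kcnk2 were small, at 0.01, 0.05, and 0.13. Hcn4 was at 0.07 in SOD-CCI replicate 3 and −0.06 in FOD-CCI replicate 2. All rats of a diet moved in the same direction for 40.9% of all genes in SOD-CCI and 23.5% in FOD-CCI rats, and the share with opposite directions was not counted. The difference between diets was −1.35 for Hcn4 (unadjusted p = 0.0894) and −0.99 for Kcnk2 (unadjusted p = 0.0158) in edgeR, and both had an adjusted p of 0.997.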

How the results depend on the processing

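Depth ran from 22547190 to 54437581 counts. SOD-CT replicates 1 and 2 were close in depth, at 22792829 and 23516056 counts, with 15421 and 20090 genes detected. Hcn3 was at 0 and 407 counts in them, and Kcnk3 at 0 and 240 counts. Whether depth limits the low members was not tested, and 3 to 4 rats per group limit all members. Of 302 fitted member values recomputed under other settings, 277 kept direction and side of the threshold, as did 491 of 522 with 1 replicate left out. The causes of the changes were not tested.

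DESeq2 called 594 genes in SOD-CCI against SOD-CT, 21 in FOD-CCI against FOD-CT, 476 for the mean of CCI against sham, 2 in FOD-CCI against SOD-CCI, 42 for the interaction, 472 and 264 between sides in SOD-CCI and FOD-CCI rats, 790 over both diets, and 60 for the side difference between diets. DESeq2 size factors in edgeR gave 24 genes for the mean of CCI against sham. With no filter on low counts that comparison gave 224, the sides 220, 61, and 456 in the same order, and the difference between diets 3. The replicate block for the number gave 1 gene in SOD-CCI against SOD-CT and 1 for the mean of CCI against sham, and changed no other call. Without the rat as a block, 0, 0, and 10 genes were called between sides. Without the libraries with spinal cord transcripts, 87 genes were called in SOD-CCI against SOD-CT, 458 for the mean of CCI against sham, and 471, 137, and 1146 between sides.

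With 1 replicate left out, the calls ranged from 0 to 47 in SOD-CCI against SOD-CT, from 0 to 43 in FOD-CCI against FOD-CT, and from 0 to 517 for their mean, each highest without FOD-CCI replicate 1. Between sides they ranged from 0 to 471 in SOD-CCI rats, from 0 to 137 in FOD-CCI rats, and from 8 to 1146 over both diets, again highest without that rat. The lowest counts were without SOD-CCI replicate 1 or 2 in SOD-CCI rats, without SOD-CCI replicate 2 or FOD-CCI replicate 3 in FOD-CCI rats, and without SOD-CCI replicate 1 over both diets.

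Among members, 2 became called between sides over both diets without FOD-CCI replicate 1, Hcn2 at −0.65 (range −0.65 to −0.27 with 1 rat left out) and Kcnk1 at −0.69 (−0.69 to −0.39). Kcnk1 was also called in SOD-CCI rats, at −0.87 by DESeq2 and −0.85 without the libraries with spinal cord transcripts (−1.10 to −0.73).

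Reversed log2 fold changes were at most 0.38 in size with all libraries, except that of Hcn2 in FOD-CCI against SOD-CCI, which was 0.83. For Hcn2 in SOD-CCI against SOD-CT, DESeq2 gave −0.019 and its size factors −0.019, no filter −0.012, the replicate block −0.36, the 2 groups alone −0.0070, and leaving out muscle libraries −0.20, with −0.22 to 0.23 over single replicates. Kcnk2 there gave −0.10 without muscle libraries (−0.12 to 0.65). In FOD-CCI against FOD-CT, Hcn2 gave −0.66 without spinal cord and −0.082 without muscle libraries (−1.07 to 0.52), Hcn4 −0.39 with the replicate block (−0.66 to 0.73), Kcnk3 −0.11 and −0.27 without spinal cord and muscle libraries (−0.43 to 0.46), and single replicates moved Kcnk1 from −0.39 to 0.0041 and Kcnk2 from −0.037 to 0.35. In FOD-CCI against SOD-CCI, leaving out spinal cord libraries gave −0.36 for Hcn2 (−0.36 to 1.10), 0.14 for Hcn4 (−1.23 to 0.14), and −0.069 for Kcnk1 (−0.069 to 0.34). Kcnk2 there gave −0.0023 with no filter, −0.082 with the replicate block, and −0.00038 without muscle libraries (−0.26 to 0.13). Between sides in FOD-CCI rats, Hcn2 gave 0.21 without the block (−0.70 to 0.061), Kcnk3 −0.054 without spinal cord libraries (−0.054 to 1.10), and single rats moved Kcnk1 from −0.52 to 0.061 and Kcnk18 from −1.94 to 1.93. Over both diets Hcn4 gave 0.13 without spinal cord libraries (−0.37 to 0.13), and single rats moved Kcnk18 from −1.10 to 0.84. On total counts, mean levels in SOD-CCI were 9.352 CPM for Hcn4 and 17.45 CPM for Kcnk2.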
